A study of Homo sapiens with 2 samples.

Results

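The outermost 500 kb of the human autosomes held 195625 CpGs that were covered by at least 1 read in both libraries of a whole-genome bisulfite sequencing (WGBS) pair, or 1.39% of the 14111071 CpGs covered in both on chromosomes 1 to 22. A CpG was counted as subtelomeric when it lay within 500 kb of the lowest or the highest position that the negative control library listed for its chromosome. The low ends of chromosomes 13, 14, 15, 21 and 22 were left out, since the short arms of these chromosomes are ribosomal and satellite DNA that the reference largely leaves as unknown bases. This left 39 arms, 17 short (p) and 22 long (q), with a median of 4437 covered CpGs per arm and a range from 324 on 1p to 9965 on 16p. Each end was set beside the next 2 Mb inward on the same arm, which held 1029593 covered CpGs, or 7.30% of the total.

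Both libraries came from HEK293T, a human embryonic kidney cell line, and were told apart by their titles alone, since the same text on infection for 30 days was attached to both samples. The control is labelled Neg, and the study describes it as cells that were not transduced. The other library, labelled dCas9+3A+HOXA5, is called the treated library here. It came from sorted fluorescent cells with 3 components, a Cas9 without nuclease activity that carries SunTag, an array of short peptides, the DNA methyltransferase DNMT3A joined to an antibody fragment for these peptides, and a guide RNA for HOXA5. Each group is 1 library, with no replicate, and no WGBS library of cells with the constructs but no guide was analysed here, so that the effects of the constructs, the guide, sorting and time in culture cannot be told apart. Over chromosomes 1 to 22 the Neg file summed to 86000851 reads at 22577702 listed CpGs and that of the treated library to 44834966 reads at 15475692 CpGs. The methylation level of a region is the mean of the deposited fraction over its CpGs covered in both libraries, in percent, and a difference is treated minus Neg in percentage points. Reads are summed over CpGs, so a read that crosses several CpGs is counted at each of them. Intervals, floors and tests on reads take these counts as independent and so understate counting error. They cover counting error between these 2 libraries only, not the spread between cultures.

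Human chromosomes end in long arrays of the hexamer TTAGGG, and the subtelomere is the stretch just inside them. It is built from blocks of sequence that are shared between many chromosome ends, followed by DNA found at a single end, and it holds gene families that were copied from end to end, among them olfactory receptors, WASH genes and the DUX4 repeats of 4q and 10q. Subtelomeric DNA carries dense methylation in most somatic cells, and its methylation depends on the DNMT3 enzymes, with DUX4 repeats and telomere-adjacent transcripts known to respond when it is lost.

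Sequences that differed most between the libraries are shown next. They are 2 of the 3 largest gains and the 2 largest losses, at most 1 per arm, among 6883 stretches of 300 bp with at least 8 reference CpGs, 6 covered ones and 20 reads in each library, and they were chosen for this difference, so that no test is given. Each is from the plus strand of GRCh37, with the CpGs in capitals. The gain on 9p (chr9:505468-505767) lies in an intron of KANK1, which encodes a regulator of the actin cytoskeleton. Of the reads at its 15 covered CpGs, 0 of 42 were methylated in Neg, which allows a share of up to 7.14%, and 31 of 33 in the treated library (95% Wilson interval 80.4 to 98.3%). The intergenic gain on 7p (chr7:449079-449378) had a level of 37.4% in Neg and 100% in the treated library, from 32 and 22 reads. The loss on 5p (chr5:415050-415349) lies in an intron of AHRR, the repressor of the aryl hydrocarbon receptor. The level of this stretch as a mean over 9 CpGs was 79.6% in Neg and 5.56% in the treated library. In reads the fall was smaller. Neg had 12 of 20 reads methylated (95% Wilson interval 38.7 to 78.1%) and the treated library 4 of 42. The loss on 11q (chr11:134817504-134817803), in an intron of the long non-coding RNA ENSG00000287251, was from 77.5% to 14.3% with 37 and 38 reads.
9p gain: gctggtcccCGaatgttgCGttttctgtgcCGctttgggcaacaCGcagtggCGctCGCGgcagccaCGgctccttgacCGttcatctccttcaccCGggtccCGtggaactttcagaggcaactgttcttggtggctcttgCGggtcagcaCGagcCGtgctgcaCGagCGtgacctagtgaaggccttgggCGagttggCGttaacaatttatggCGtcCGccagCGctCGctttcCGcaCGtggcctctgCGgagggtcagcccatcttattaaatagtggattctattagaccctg
7p gain: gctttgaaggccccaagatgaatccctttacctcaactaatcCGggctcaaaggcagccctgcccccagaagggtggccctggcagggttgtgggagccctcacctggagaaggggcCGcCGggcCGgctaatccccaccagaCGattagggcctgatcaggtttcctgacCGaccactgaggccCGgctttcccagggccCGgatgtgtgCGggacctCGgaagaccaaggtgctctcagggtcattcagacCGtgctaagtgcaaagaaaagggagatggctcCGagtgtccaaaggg
5p loss: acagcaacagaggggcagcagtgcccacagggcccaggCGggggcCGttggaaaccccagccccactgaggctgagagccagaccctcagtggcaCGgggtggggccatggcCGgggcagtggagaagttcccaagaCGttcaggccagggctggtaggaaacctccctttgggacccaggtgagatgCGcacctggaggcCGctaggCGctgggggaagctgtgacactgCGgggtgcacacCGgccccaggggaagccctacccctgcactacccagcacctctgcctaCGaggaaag
11q loss: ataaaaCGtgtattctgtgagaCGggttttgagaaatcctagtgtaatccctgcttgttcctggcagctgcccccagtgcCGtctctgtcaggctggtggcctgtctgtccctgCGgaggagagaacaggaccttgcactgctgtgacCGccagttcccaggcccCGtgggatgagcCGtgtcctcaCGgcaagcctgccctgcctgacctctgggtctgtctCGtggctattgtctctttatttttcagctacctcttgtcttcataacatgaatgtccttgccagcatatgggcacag

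Chromosome ends were mostly methylated in both libraries, and most were a few points higher in the treated library. Over all members the level was 68.7% in Neg and 71.4% in the treated library, a difference of 2.72 points. The inward 2 Mb differed by 1.14 points, from 68.7% to 69.8%, and all covered CpGs of chromosomes 1 to 22 by 5.79 points, from 64.5% to 70.3%. The gain at chromosome ends was thus nearer to that of the DNA beside them than to that of the autosomes as a whole. In summed reads, the ends were methylated at 68.0% of 947853 reads for Neg, with a 95% Wilson interval from 67.9 to 68.1%, and at 72.0% of 631560 reads for the treated library, with an interval from 71.9 to 72.1%. The spread between single CpGs was wide, with an SD of 38.3 points in Neg and 41.5 points in the treated library.

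Arms differed far more from each other than the libraries did. The median level over the 39 arms was 69.9% in Neg, with a mean of 65.1% ± 15.2 (SD over 39 arms), and 73.7% in the treated library, with a mean of 67.9% ± 16.4. The highest Neg levels were on 10p (79.9%), 17q (79.8%) and 21q (79.0%). At the other end stood 3p with 13.9%, 14q with 17.5%, 4p with 39.7%, 4q with 43.7%, 1q with 47.0% and 11q with 49.4%. The ends of 22 arms were above their inward 2 Mb in Neg and those of 17 were below, and both counts were the same in the treated library. Short and long arms had nearly the same Neg median, 70.0% and 69.8%, while their median differences between the libraries were 3.83 and 2.19 points.

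**Figure D1:**
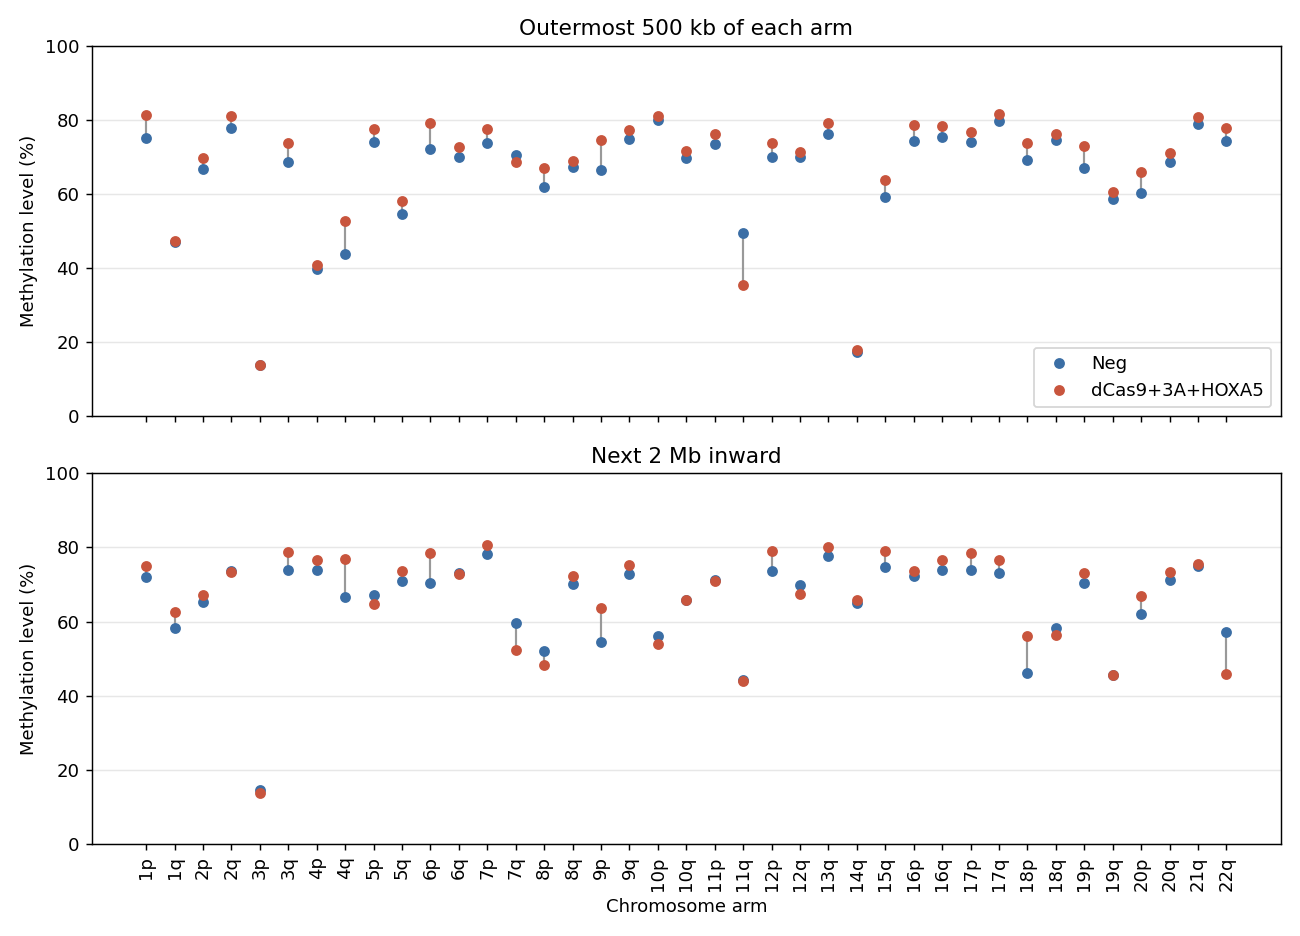
Methylation level in percent of each of the 39 arms, in the outermost 500 kb (upper panel) and in the next 2 Mb inward (lower panel); blue points are Neg, red points dCas9+3A+HOXA5, and grey lines join the 2 libraries of an arm. The ends of 3p and 14q sit under 20% in both libraries, and 11q is the end with the longest line downward, from 49.4% to 35.6%.

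The low ends were of different kinds. On 3p the low level went on inward, where the 2 Mb stood at 14.4% in Neg and 13.7% in the treated library, and 1 of the 8 gene starts in its 500 kb was protein-coding. The end of 14q holds the variable gene segments of the immunoglobulin heavy chain, and 82 of its 90 gene starts carry an IGH symbol. Its level was 17.5% in Neg and 18% in the treated library while the inward 2 Mb stood at 65.0% and 65.8%. Levels on 14q were still 9.31% in Neg between 700 and 800 kb from the outermost listed CpG. They then rose unevenly, with 59.6% between 900 and 1000 kb, 36.5% between 1000 and 1100 kb and 66.0% between 1200 and 1300 kb. From 800 to 1200 kb each 100-kb bin was lower in the treated library, by between -5.04 and -14.5 points. On 4p, where 8 of 31 gene starts carry a zinc finger symbol, every 25-kb bin of the first 400 kb lay between 5.79% and 47.6% in Neg. The next bin on 4p stood at 73.8%, and the inward 2 Mb at 74.0% in Neg and 76.6% in the treated library. The end of 4p as a whole went from 39.7% to 41.0%.

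**Figure D2:**
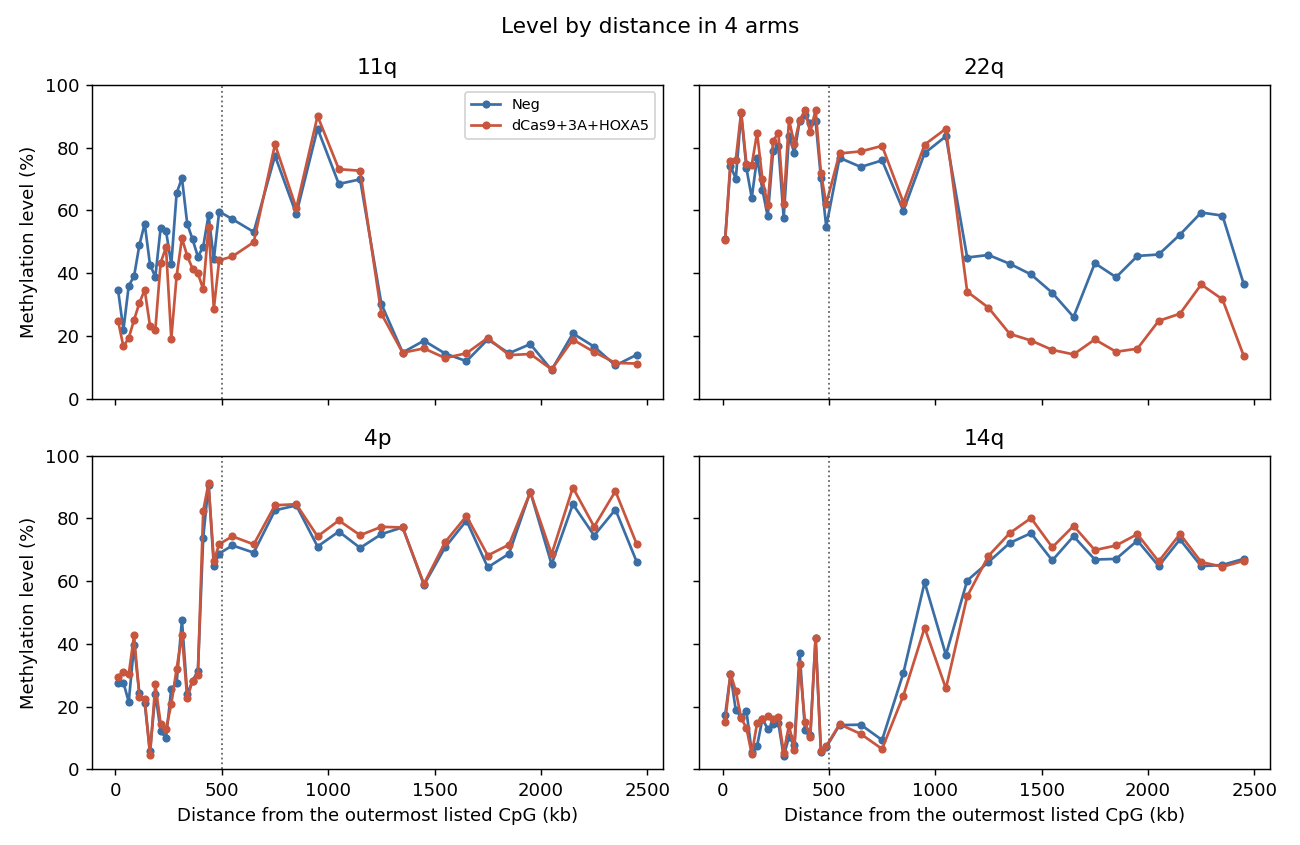
Methylation level in percent against distance in kb from the outermost listed CpG for 11q, 22q, 4p and 14q, in 25-kb bins up to 500 kb (dotted line) and in 100-kb bins beyond it; blue is Neg and red dCas9+3A+HOXA5. The libraries part over the whole end of 11q, and on 22q red lies under blue in every bin beyond 1100 kb, while they run close together on 4p and over the end of 14q.

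Of the 39 ends, 36 were higher in the treated library, with a median difference of 2.94 points. The 3 that were lower were 3p (by -0.18 points), 7q (by -1.75 points) and 11q (by -13.8 points). Most of the autosomes were higher too. Among 500-kb windows with at least 500 covered CpGs, 7.89% of 38 ends were lower, beside 11.3% of all 5353 windows. Under other settings 32 to 37 ends were higher, the fewest with at least 5 reads per CpG, and 33 from summed reads, where 1q, 8q and 19q were also lower. The order of the largest differences depends on the weighting. In summed reads they were on 18p, from 23.6% to 40.3%, on 15q, from 51.5% to 65.7%, and on 4q, from 36.8% to 48.1%. As means over CpGs they were on 4q, from 43.7% to 52.7%, on 9p, from 66.5% to 74.6%, and on 6p, from 72.3% to 79.2%. The inward 2 Mb differed by a median of 2.30 points and were higher in 25 arms. Subtracting the inward difference from that of the end, arm by arm, left a median of 0.69 points, with 26 arms above 0 and 13 below. This median was 1.36 points from summed reads and 1.85 points with ends of 250 kb. Arms with larger differences at the end also tended to have larger ones inward (Pearson's r 0.41 and Spearman's rho 0.55 over 39 arms, which share both libraries and their depth), so this is a description with no test.

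**Figure D3:**
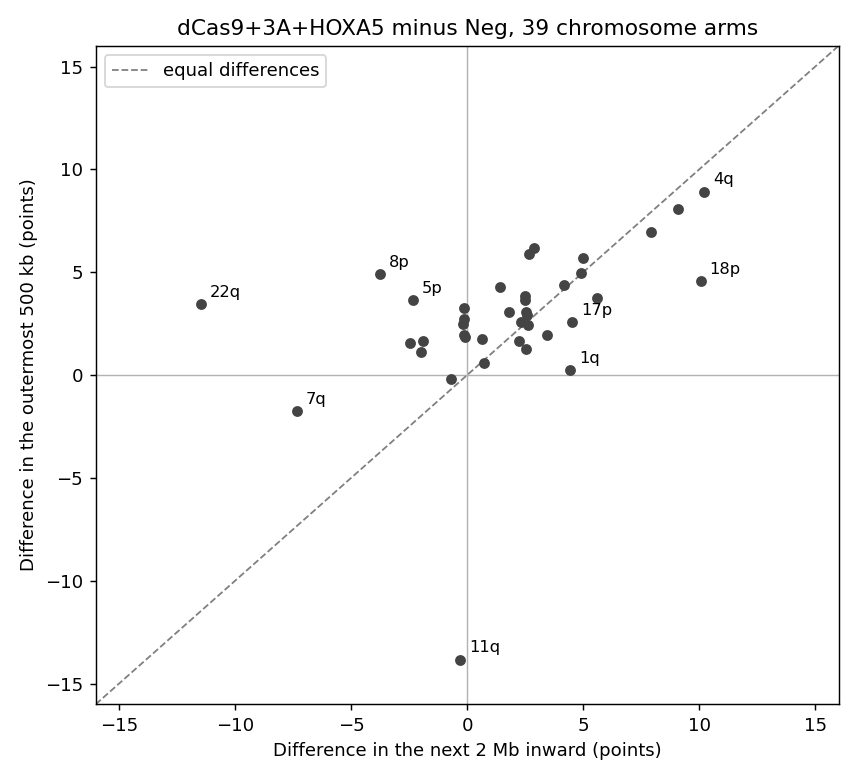
Difference between the libraries (dCas9+3A+HOXA5 minus Neg, percentage points) in the outermost 500 kb against that in the next 2 Mb inward, 1 point per arm; the dashed line marks equal differences and named arms are the 4 farthest above and the 4 farthest below it, with 4q. Most arms lie between 0 and 10 points on the vertical axis, 22q stands far to the left at -11.5 points inward, and 11q far down at -13.8 points.

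The ends were then tested against their inward flanks by a Wald test of the ratio of 2 odds ratios on summed reads, with every other 500-kb window of the autosomes tested against its own flanks. Of 38 end windows with at least 500 covered CpGs, 4 had a difference over 5 points above that of their flanks at a Benjamini-Hochberg adjusted p under 0.01, namely 5p, 7q, 8p and 22q. That is 10.5% of the ends, beside 12.4% of all 5353 windows. On the other side of their flanks were 2 ends, 11q and 18p, or 5.26%, beside 10.9% of all windows. The direction is that of the difference in points, and on 18p the reads that were tested point the other way, so that 11q is the 1 end below its flank by both. Neither share at the ends was above that of all windows, but the order of the upward shares depends on the read minimum. With at least 5 reads per CpG, 3 of 19 ends lay above their flanks, or 15.8%, beside 3.15% of 698 windows. The median difference was 2.83 points over the end windows and 6.59 points over 5315 interior windows. The end of 1p, with 324 covered CpGs, was left untested.

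On 22q (chr22:50744532-51244532) the difference between end and flank came from the flank. The end rose from 74.3% to 77.7%, by 3.46 points, with 75.7% methylated among 45203 reads in Neg (95% Wilson interval 75.3 to 76.0%) and 79.1% among 29173 reads in the treated library (78.6 to 79.6%). The inward 2 Mb fell from 57.3% to 45.8%. This fall began about 1100 kb from the end, where the level between 1100 and 1200 kb was 45.0% in Neg and 34.1% in the treated library, and all 14 bins of 100 kb from there to 2500 kb were lower in the treated library. The difference of the differences was 14.9 points. The 7 genes listed for this end, among them SHANK3, a scaffold of the synapse, and ARSA, which encodes arylsulfatase A, had 0 promoters called, beside 1.61% of all promoters called higher and 0.628% called lower, shares at which a count of 0 says nothing about so few genes. SHANK3 stood at 8.33% and 10.7%, ARSA at 2.04% and 0% (0 of 64 reads, up to 4.69%), MAPK8IP2 at 2.07% and 0% (0 of 144 reads, up to 2.08%), and CPT1B, an enzyme of fatty acid import into mitochondria, at 85.1% and 88.8%. RABL2B stood at 1.52% and 2.73%.

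The other 3 ends above their flanks also had falling flanks. On 5p the end rose from 74.0% to 77.7% and the inward 2 Mb fell from 67.1% to 64.7%, a difference of the differences of 6.0 points. On 8p the end rose from 62.0% to 66.9% beside an inward fall from 52.2% to 48.4%, with 8.65 points between them. On 7q the end itself was lower, from 70.5% to 68.7%, but by less than its flank, which went from 59.7% to 52.3% (5.59 points apart).

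The end of 11q (chr11:134446404-134946404) was the 1 arm where methylation was lost over the whole 500 kb. Its level was 49.4% in Neg and 35.6% in the treated library, over 3450 CpGs. In reads, Neg had 48.1% of 12589 methylated, with a 95% Wilson interval from 47.2 to 48.9%. The treated library had 36.9% of 9676, with an interval from 36.0 to 37.9%. All 20 of its 25-kb bins were lower in the treated library, by between -3.74 and -26.4 points. The loss ran on to the bin from 500 to 600 kb, with 57.2% and 45.3%, and the next bin was lower by -3.26 points, while from 700 to 1200 kb the level was higher in the treated library, for example 77.4% and 81.1% between 700 and 800 kb. The inward 2 Mb as a whole stood at 44.2% and 43.9%, so that the difference of the differences was -13.5 points. The region is poor in genes and in dense CpG clusters. None of its 10 gene starts is protein-coding, 9 are long non-coding RNAs, and 8.26% of its covered CpGs had 20 or more others within 250 bp, the lowest share of any end (median over arms 28.8%). Depth at this end was close to that of its flank, at 0.98 times the inward depth in Neg and 0.96 times in the treated library, and 5.81% of its reference CpGs lay in repeated sequence, and the loss was -14.1 points without them.

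The ends of the other named arms differed less from their flanks. On 18p the end went from 69.3% to 73.8% and its flank from 46.2% to 56.2%, a difference of the differences of -5.50 points, but in summed reads the end had the larger gain (ratio of odds ratios above 1, natural log 0.50), so the direction depends on whether CpGs or reads are weighted. On 1q the end stood at 47.0% and 47.2% while the flank went from 58.2% to 62.6%, and on 17p the end went from 74.2% to 76.7% and the flank from 74.0% to 78.5%. On 4q the flank rose by 10.2 points, beside 8.92 points at the end. On 10q the end went from 69.7% to 71.5%, on 16p from 74.3% to 78.6%, and on 20q from 68.5% to 71.1%, with 1.91, 2.86 and 0.29 points more than their flanks.

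Levels rose with distance from the end over the outer 500 kb. Averaged over arms, the Neg level was 56.3% in the first 25 kb and 70.2% between 400 and 425 kb, and it came down again to 58.4% between 2400 and 2500 kb. The SD over arms was about as large at each distance, 20.5 points in the first bin and 23.1 points in the last, so that these means are far from any single arm. The difference between the libraries averaged 4.67 points over the 33 arms with at least 20 covered CpGs in the first 25 kb, where 26 arms were higher in the treated library. It was 2.9 points between 475 and 500 kb, where 32 of 38 arms were higher. The largest mean difference, 5.0 points, was between 75 and 100 kb, with an SD over arms of 6.76 points.

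**Figure D4:**
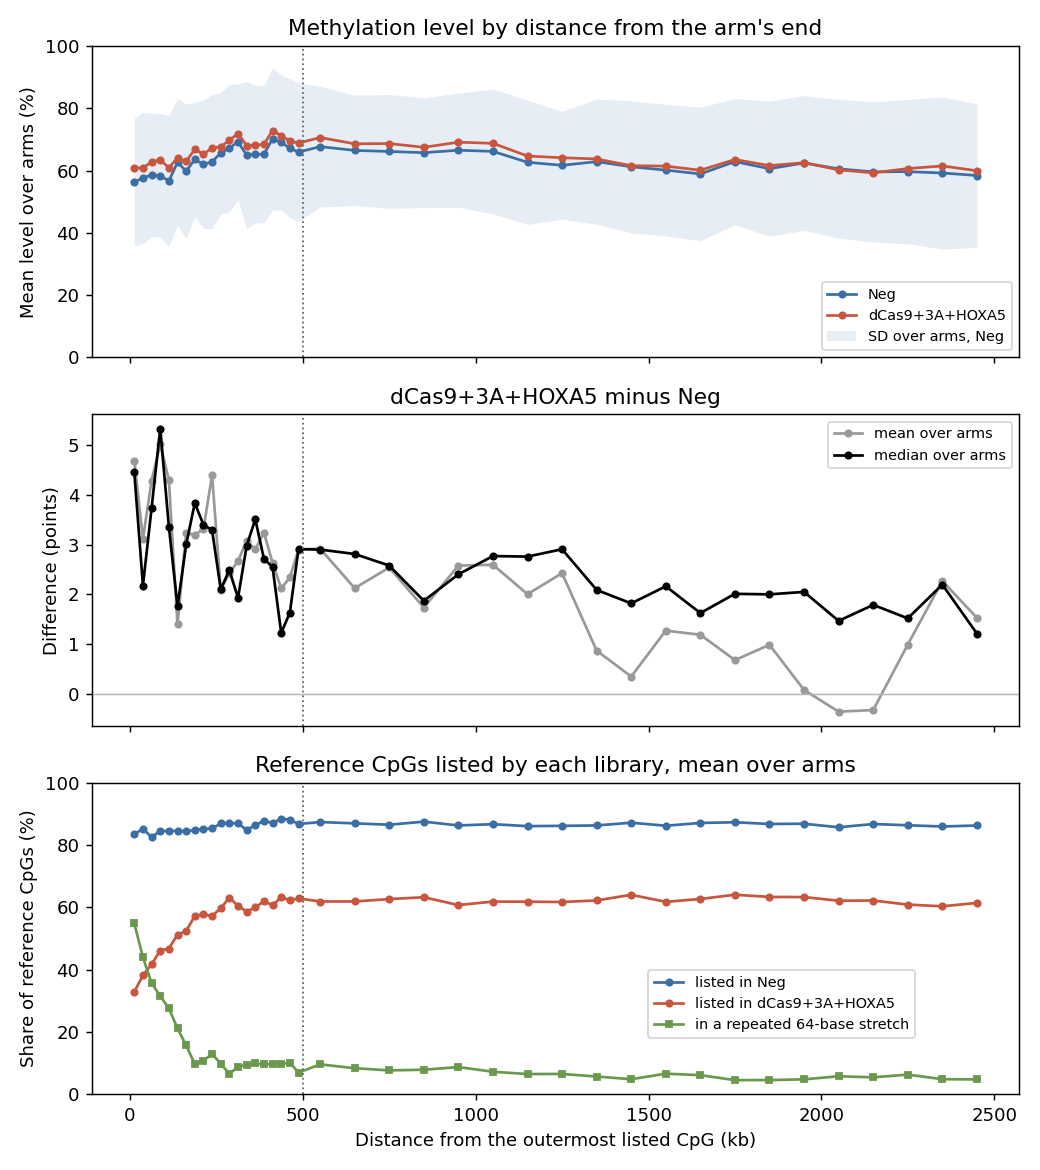
Means over arms by distance in kb from the outermost listed CpG, in 25-kb bins up to 500 kb (dotted line) and 100-kb bins beyond; the upper panel gives the level in percent with the SD over arms in Neg as shading, the middle panel the mean and median difference in points, and the lower panel the share of reference CpGs that each library lists and the share that lie in a repeated 64-base stretch. Neg lists 83.5% of reference CpGs in the first 25 kb and dCas9+3A+HOXA5 32.9%, while 54.8% of them are in repeated stretches.

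The 2 libraries did not list the ends alike. A CpG was called repeated here when the 64 bases centred on it occurred again, on either strand, on chromosomes 1 to 22, X or Y of GRCh37. Of 355430 reference CpGs in the 39 ends 15.3% were repeated, beside 5.93% in the inward 2 Mb and 7.60% over the autosomes. In the first 25 kb the share was 54.8%, averaged over arms. Neg listed 88.0% of the CpGs in single-copy sequence at the ends and 85.1% of the repeated ones. The treated file listed 65.3% of the former but 23.2% of the latter. Repeated CpGs were also listed less by the treated library away from the ends. Neg listed 84.0% and the treated library 37.5% of those in the inward 2 Mb, and 87.3% and 39.6% over the autosomes. The clearest case among the ends was 1p, where 91.0% of the reference CpGs were repeated, Neg listed 87.2% of them all and the treated library 8.65%. The same contrast was seen on the alternate haplotype contigs, with 161176 CpGs listed in Neg and 4735 in the treated library. The sources used here do not give the handling of reads with several matches, and its part in the contrast was not tested. Members are CpGs listed by both, so 6.06% of them were repeated. Their level was 67.8% in Neg and 71% in the treated library, a difference of 3.18 points, beside 2.69 points (68.8% to 71.4%) for the members in single-copy sequence. With single-copy CpGs alone the 4 ends above their flanks were the same arms, and 11q and 18p were again below, 18p by -6.21 points.

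Depth marked out a few ends. The median ratio of reads per listed CpG at the end to that in the inward 2 Mb was 1.01 in Neg and 0.99 in the treated library. It was highest in Neg on 15q (2.62, with 1.40 in the treated library), 4q (2.52 and 1.67) and 18p (2.49 and 2.26), and it was 1.32 and 1.01 on 10q. On 21q it was 1.01 in Neg and 1.28 in the treated library, the largest relative shift upward of any arm. On 18p the bin from 75 to 100 kb held 41.4 reads per listed CpG in Neg. Its mean level over CpGs at the end was 69.3% in Neg, while 23.6% of its reads were methylated, since the CpGs with most reads had low levels. A ratio of end to inward depth does not show a shift of both. On 7q, reads per listed CpG were 4.80 in Neg and 4.89 in the treated library at the end, beside medians over arms of 4.18 and 3.05. Inward on 7q they were 4.74 and 4.64, beside medians of 4.12 and 3.03. In the flank of 18p, Neg listed 69.9% of reference CpGs and the treated library 26.6%, its lowest inward share. More copies of a sequence in these cells and reads placed from copies elsewhere cannot be told apart by depth.

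The size of the difference between the libraries also went with local CpG density, and at each density the ends lay between the inward DNA and the rest of the autosomes. Members with 0 to 3 other reference CpGs within 250 bp differed by 6.40 points, from 49.9% to 56.3%. Those with 4 to 9 differed by 4.05 points, from 68.2% to 72.2%, those with 10 to 19 by 3.25 points, from 77.0% to 80.3%, and those with 20 or more by 0.51 points, from 62.4% to 62.9%. The inward CpGs of the same 4 classes differed by 5.02, 2.27, 1.19 and 0.02 points, and those of the rest of the autosomes by 11.7, 6.47, 4.29 and 1.25 points. The sparse class made up 5.49% of members but 20.1% of the rest. In the sparse class 24 of 35 arms with at least 100 CpGs at the end and inward had a larger difference at the end than inward, and in the dense class 18 of 38.

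**Figure D5:**
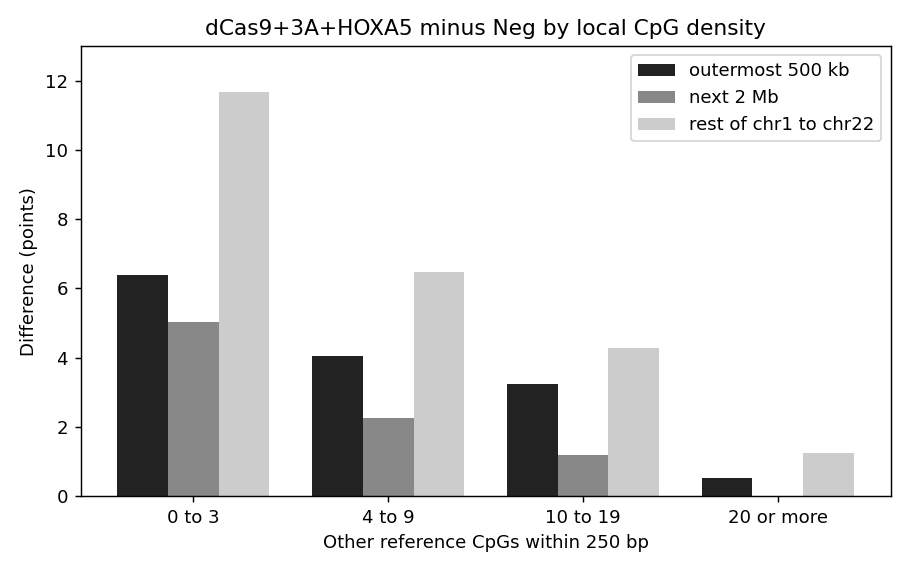
Difference in level between the libraries (dCas9+3A+HOXA5 minus Neg, points) by the number of other reference CpGs within 250 bp, for members (black), the next 2 Mb inward (dark grey) and the rest of chromosomes 1 to 22 (light grey); each bar is over all covered CpGs of its class, with no replicate and so no error bar. Bars fall from left to right in all 3 groups, from 6.40 to 0.51 points in the members.

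At a finer scale, 10-kb tiles with at least 10 covered CpGs were tested by Fisher's exact test on summed reads, with adjustment over all 254091 tiles of the autosomes. A tile was called at a difference of over 20 points and an adjusted p under 0.01. Of 1747 tiles at chromosome ends, 32 were higher in the treated library, or 1.83%, beside 9.13% of all tiles, and 1.48% of 7559 inward tiles. The number of lower tiles was 14, or 0.80%, beside 0.617% of all tiles and 1.87% of inward tiles. Of these 14 lower tiles, 11 were on 11q. Without 11q the count is 3, or 0.177% beside 0.613% of all tiles, which turns the order of these shares. These 3 were 2 tiles on 4q in the DUX4 repeats, from 46.1% to 21.8% and from 39.1% to 7.50%, and 1 on 12q over ZNF268, from 79.0% to 49.1%. The 2 tiles on 4q rest on 12 CpGs with 231 and 86 reads and on 20 CpGs with 266 and 41 reads. In the 4q bin from 25 to 50 kb, 28 CpGs were covered in both libraries, and depth was 9.45 reads per listed CpG in Neg and 2.14 in the treated library.

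Of the tiles that rose, 8 lay on 4q, 5 on 9p and 4 on 20p, the arms with most such calls. These were 17.02% of the 47 tiles tested on 4q, 10.6% of 47 on 9p and 8% of 50 on 20p. Of all tiles 9.13% were called higher, so the shares on 9p and 20p were near that of all tiles. All 3 were above the 1.83% over the ends together. On 4q 7 of the 8 stood between 399 and 499 kb from the end, where Neg levels were 18.3 to 31.3% and treated levels 41.4 to 55.2%. Depth was raised there. The 4q bins from 375 to 500 kb held 4.20 to 6.97 reads per listed CpG in Neg and 4.05 to 4.64 in the treated library. The inward 2 Mb held 2.67 and 2.33. On 20p the largest rise among called tiles at the ends was over DEFB126, from 23.3% to 74.2% with 93 and 82 reads, and the tile over DEFB127 beside it went from 31.3% to 67.4%. Both genes encode beta-defensins, small antimicrobial peptides. A tile on 20p over DEFB132 went from 59.95% to 84.3%. On 9p 4 tiles over DOCK8, which encodes an activator of small GTPases known from immune cells, rose, the largest from 50.8% to 87.0%. A rise over ZMYND11 on 10p, which encodes a reader of methylated histone H3.3, was from 71% to 94.7%.

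Promoters, taken as 1 kb around an annotated gene start, were seldom called. The ends hold 1007 gene starts, 305 of them protein-coding, and 723 promoters had at least 5 covered CpGs. Of these, 10 were higher in the treated library, or 1.38%, beside 1.61% of all 42034 promoters tested, and 5 were lower, or 0.69%, beside 0.628%. The thresholds were those of the tiles. These shares of all promoters are the background for the gene lists that follow, most of which are so short that 0 or 1 call is no result about the list. The share of promoters under 20% was 38.5% in Neg and 39.7% in the treated library.

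Among the promoters that rose, the 6 largest gains were of IGHV3-66, IFITM1, TUBB8B, CLUHP5, RACK1 and the long non-coding RNA ENSG00000235880. RACK1, on 5q (start at chr5:180675096), encodes a scaffold protein of the ribosome. Its promoter had 0 of 66 reads methylated in Neg, which allows up to 4.55%, and 34 of 70 in the treated library, a level of 42.3% over 13 CpGs (Fisher's exact test, adjusted p = 3.08e-10). IFITM1, on 11p, encodes an interferon-induced membrane protein that limits virus entry, and its promoter went from 18.2% to 70.0% over 10 CpGs with 29 and 20 reads (adjusted p = 0.0038 in the exact test). TUBB8B, a beta-tubulin gene of 18p, went from 44.3% to 89.5% over 19 CpGs (adjusted p = 2.81e-05 in the exact test). The pseudogene CLUHP5 on 10q went from 39.5% to 83.3% over 6 CpGs. IGHV3-66, a heavy-chain variable segment on 14q, went from 0% (0 of 21 reads, up to 14.3%) to 60% over 5 CpGs. ENSG00000235880 on 9p went from 71.5% to 100% over 9 CpGs with 23 and 29 reads. With single-copy CpGs alone TUBB8B, CLUHP5 and RACK1 were still called, IFITM1 was not (28.3% and 80% over 5 CpGs, adjusted p = 0.020 in the exact test), nor was ENSG00000235880 (adjusted p = 0.080), and IGHV3-66 had too few such CpGs.

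The start of KANK1, the gene whose intron is shown above, also rose, from 0% (0 of 43 reads, up to 6.98%) to 27.3% over 22 CpGs (Fisher's exact test, adjusted p = 0.0070). Its gene body was already methylated, at 74.8% in Neg and 80.6% in the treated library over 1274 CpGs. The remaining calls upward were PGAP6 on 16p (69.9% to 98.0%), RNA5SP462 on 19p (66.9% to 93.5%) and UBE2Q2P13 on 15q (66.9% to 87.7%), all already methylated in Neg.

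The 5 promoters that fell were FOXO1B, RN7SL209P, LINC02706, FAM110C and HBA1. HBA1 (start at chr16:226679) encodes the alpha chain of adult haemoglobin, and its promoter went from 56.6% to 32.4% over 49 CpGs, with 152 of 277 and 67 of 211 reads methylated (Fisher's exact test, adjusted p = 3.49e-05). Its sequence is nearly identical to that of HBA2, and 16 of the 49 CpGs lie in single-copy sequence. Those 16 stood at 48.7% and 27.9%, which was not called (adjusted p = 0.092 in the exact test). FOXO1B, a retrotransposed copy of FOXO1 on 5q, went from 40.9% to 10.0% over 30 CpGs (adjusted p = 6.58e-06 in the exact test). FAM110C on 2p went from 56.4% to 32.2% at its start while its gene body went from 67.2% to 79.6%. LINC02706, on 11q within the region of loss, went from 90.8% to 62.2%, and RN7SL209P, a copy of the signal recognition particle RNA on 15q, from 64% to 34.7%.

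Of 5 alpha-globin genes 4 were tested, with 1 call, that of HBA1, beside the 0.628% of all promoters that were lower. HBQ1 stood at 75.3% and 67% as means over CpGs, but in reads at 70.0% (361 of 516) and 75.9% (302 of 398), so its direction depends on the weighting. The others were HBZ, the embryonic zeta-globin gene, at 83.7% and 93.7%, and HBA2 at 81.1% and 96.2%. The 11 genes around the cluster, which include NPRL3, home of its enhancers, had 0 calls, too few genes to read against the 1.61% and 0.628% of all promoters, and a median level of 4.95% in Neg and 11.2% in the treated library, with a median of the differences of 2.97 points. Among the 4 with most covered CpGs, LUC7L stood at 4.95% and 10.1%, AXIN1 at 2.26% and 2.54%, and POLR3K at 0.68% and 3.06%. ARHGDIG stood at 15.3% and 14.5% over CpGs, but at 35.7% and 25.5% in reads.

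Zinc finger genes encode many of the factors that repress repeats. Their list was taken by symbol and was long at the ends, with 53 entries on 9 arms, 20 of them on 19q. It also holds long non-coding RNAs and pseudogenes with such symbols, and some entries share a promoter, such as ZNF891 and ZNF10. Of 46 tested, 0 were called by Fisher's exact test, beside the 1.61% and 0.628% of all promoters, so that this count is no result about the list. The median promoter level was 3.19% in Neg and 2.38% in the treated library, beside 47.1% and 53.6% over all promoters at the ends. ZNF517 stood at 0.46% and 2.26%, ZNF511 at 2.60% and 0% (0 of 290 reads, up to 1.03%), and ZNF497 at 3.72% and 4.0% over CpGs, but at 6.52% and 2.51% in reads. ZNF497-AS1 stood at 1.09% and 2.49%. ZSCAN18 stood at 56.7% and 70.9% over 82 CpGs (Fisher's exact test, adjusted p = 0.00014), a difference under the 20 points set for a call. The chromatin regulators (5 tested) and transcription factors (6 tested) also had 0 calls. TRIM28, the co-repressor that zinc finger proteins recruit, stood at 2.13% and 0.71%, KDM5A, a histone demethylase, at 6.34% and 0% (0 of 105 reads, up to 2.86%), and PRMT2, an arginine methyltransferase, at 1.56% and 0.22%. CHAMP1 stood at 3.1% in both libraries. The start of ZMYND11 stood at 54.0% and 100% over 5 CpGs with 19 and 13 reads (Fisher's exact test, adjusted p = 0.028), which did not pass. SOX18 stood at 3.09% and 3.33% over CpGs and at 3.35% and 2.38% in reads, SOX12 at 1.26% and 1.45%, IRF4, a factor of lymphocytes, at 90.7% and 91.3%, and TBP, the TATA-binding protein, at 1.18% and 0% (0 of 127 reads, up to 2.36%).

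The repeated subtelomeric families were the least measurable list. Of 82 genes 25 had enough covered CpGs, and 1 was called, TUBB8B, beside 1.61% of all promoters called higher, so that this count is no result about the list. Their median promoter level was 53.8% in Neg and 70.8% in the treated library, and the median of the differences was 2.15 points with a range from -36.0 to 48.8 points. FRG1 on 4q, next to the DUX4 array, stood at 28.2% and 14.1% over 67 CpGs (Fisher's exact test, adjusted p = 4.10e-08), a difference under the 20 points set for a call. Its divergent transcript FRG1-DT stood at 28.8% and 18%. DUX4L9 had 2012 reads in Neg and 116 in the treated library over 37 CpGs. It stood at 35.1% and 34.8% over CpGs, but at 28.9% and 36.2% in reads. DUX4L8 stood at 50.5% and 41.4% over CpGs, but at 44.8% and 48.0% in reads. Read numbers for these copies moved with the listing of repeats described above, and their part in the levels was not tested. The 3 beta-defensin promoters tested had 0 calls. Of 4 IFITM genes, IFITM1 was called, beside the 1.61% of all promoters, and both lists are too short for these counts to say more. IFITM2 stood at 89.3% and 88.9%, IFITM5 at 64.7% and 67.6%, and IFITM3 at 43.2% and 68.2% as means over its 16 CpGs. In reads IFITM3 had 34 of 77 and 21 of 50 methylated (Fisher's exact test, adjusted p = 1), so its rise is seen over CpGs and not over reads.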

How the data were processed

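WGBS was run on genomic DNA of 2 HEK293T samples. Per the methods, the authors used BSMAP 2.90 to trim reads, to align them to hg19 and to call each CpG. The deposited files hold, per CpG, counts of C and of C or T reads, an estimated count (the C or T count corrected for variants by the opposite strand) and the methylation fraction, C over that estimated count. The methods state a minimum of 5 reads, while the files list CpGs from 1 read, all used here. How duplicates and reads with several matches were treated was not given in the sources used here.

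Members and the gene lists were chosen with earlier results of these data known. Coordinates and sequences are from GRCh37, with GENCODE 44 gene starts mapped to it, and 100% of members lay on a CG. Windows were tested by a two-sided Wald z test of the ratio of odds ratios (0.5 added per cell) against flanks of 1 Mb on each side, or 2 Mb inward for ends. Tiles and promoters were tested by two-sided Fisher's exact tests on C and T reads. Adjustment was by Benjamini-Hochberg over the autosomes. Tests were tried on simulated data first. One of the largest gains among 300-bp stretches is not reported here. Named were the 6 largest gains and losses among called promoters (5 losses existed), the 4 arms farthest above and below their flanks with 4p, 4q, 10q, 16p, 17p and 20q, and up to 4 members with most covered CpGs per gene list; tiles, other low or high arms, KANK1, the other called promoters, NPRL3, SHANK3, HBA2, ZSCAN18 and ZMYND11 were named after their values were seen. Scripts used python 3.11.15, numpy 2.4.6, pandas 2.3.3, scipy 1.17.1 and numba 0.67.0.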

Additional observations from a re-analysis of the deposited data

How the results depend on the processing

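No paired analysis was possible because the groups hold 1 library each, and no library could be left out. Depth limits single CpGs most, at 4.85 and 3.23 reads per member, and the end of 1p was too thinly covered for a window test. The median difference of the ends, that of the inward 2 Mb and their gap stayed above 0 in every alternative run. The medians over arms moved by more than counting error as follows. With at least 5 reads per CpG the levels were 74.6% and 78.2%. From summed reads they were 70.9% and 74.1%, with differences of 2.58 points at the ends and 1.61 inward and a gap of 1.36. With ends of 250 kb they were 64.2% and 68.3%, a difference of 3.28 and a gap of 1.85. With ends of 1 Mb the Neg level was 71.3%, the differences 2.60 and 1.29 and the gap 0.91. Against the next 5 Mb the gap was 0.95. Without CpGs whose corrected depth fell under 90% of the read count the levels were 70.1% and 73.6%. With inward CpGs weighted to the density classes of the end, the inward difference was 2.41 and the gap 0.90. With single-copy CpGs alone, chosen after seeing the data, the levels were 70.2% and 72.8%, the differences 2.74 and 2.23 and the gap 0.90.

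Of the end windows, 1 lay above and 1 below its flanks at over 10 points. With at least 5 reads 3 of 19 lay above by the same Wald test, or 15.8% beside 3.15% of all 698 windows, which turns the order of the shares, and 0 lay below, beside 4.01% of all. Without 11q, also chosen after seeing the data, 1 lay below, 18p. Tiles called higher were 13 (1.69%, beside 2.63% of all tiles) and lower 1 (0.13%, beside 0.798%) with at least 5 reads. In 5-kb tiles 69 were higher (2.16%, beside 5.54%) and 22 lower (0.69%, beside 0.675%). With 11q left out 3 tiles were lower (0.177%, beside 0.613%), which turns the order of the shares. Promoters called higher were 3 with at least 5 reads, or 1.78% beside 1.28% of all promoters, a share now above that of all, and 0 were lower, beside 0.824%. At over 30 points 5 were higher (0.69%, beside 1.11%) and 1 lower (0.138%, beside 0.369%). Reads per reference CpG gave relative depths of 1.01 in Neg and 0.92 in the treated library. Counts of calls that moved with a minimum of 5 reads rest on fewer CpGs and features tested.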
